A study of Mus musculus with 12 samples.

Results

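A set of 61 protein-coding genes was expressed in cultured Melan-A melanocytes and was at or near 0 reads in both B16 melanoma lines. The members were chosen on the untreated control libraries alone. A member had at least 10 CPM (counts per 1e6, the count of a gene over all counts of its library) in both Melan-A controls and at most 3 counts in each of the 4 controls of B16F0 and B16F10. Of 19024 protein-coding rows, 9246 reached 10 CPM in both Melan-A controls, and the 61 members are 0.660% of these. Because the control values made the choice, they are given here as a description and were not tested.

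RNA was sequenced from 3 mouse lines, each untreated or with SX-682, an inhibitor of the chemokine receptors CXCR1 and CXCR2, with 2 libraries in each of the 6 groups. Melan-A is a non-tumorigenic melanocyte line, B16F0 is a tumorigenic melanoma line, and B16F10 is its more metastatic derivative. B16F10 was selected from the same B16 tumour as B16F0, so the pair counts as a single tumour and not as 2 independent melanomas, and each line stands for 1 culture history. The labels give no dose or exposure time for the sequenced cultures, and they do not say that the 2 libraries of a group came from separate cultures, so p-values measure only the spread between these libraries.

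Melanocytes arise from the neural crest, and cultured lines keep or lose parts of that programme. Among the genes most often lost in melanoma are Cdkn2a and Cdkn2b, neighbours that encode inhibitors of the cyclin D kinases and, from an overlapping reading frame of Cdkn2a, the p53 activator Arf. Imprinted genes, which are read from only 1 parental copy and tend to lie in domains with a shared control region, are another group whose expression is easily lost as a block in cultured and tumour cells.

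Library totals lay between 48876982 and 85322092 counts, so that 3 counts in a library equal 0.0352 to 0.0614 CPM. Melan-A fell short of part of its label. Of 10 melanocyte markers, 5 reached 10 CPM in both controls, among them Sox10 at 713 CPM, Dct at 377 CPM and Mitf at 109 CPM, whereas the pigment enzyme gene Tyr was at 0.879 CPM and Gpr143 at 0.012 CPM. The 10 markers summed to 1454 CPM in Melan-A controls, 19362 CPM in B16F0 controls and 23608 CPM in B16F10 controls. Melan-A was therefore the line with the lowest summed melanocyte markers. Only Sox10 of the 10 went the other way, at 452 and 548 CPM in B16F0 and B16F10 controls. The sum of 6 Schwann cell and glia markers was 489 CPM in Melan-A against 297 and 270 CPM in B16F0 and B16F10 controls, that of 8 fibroblast markers was 123 CPM against 16.4 and 8.49 CPM, and the part of these differences in the membership was not tested. In bulk RNA, fewer cells of a type and less RNA per cell cannot be told apart.

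The members covered a wide range of expression in Melan-A. Their mean control level ran from 10.5 CPM for Csgalnact1 to 852 CPM for Peg3, with a median of 30.5 CPM, against a median of 54.4 CPM over the 9246 rows that could have been members. At least 100 CPM was reached by 9 members, and 21 members lay under 20 CPM. Per kilobase of exon, Tnnt3 stood highest at 353 RPKM (CPM divided by the exon length in kilobases), followed by the secreted protein gene Cytl1 at 254 RPKM and Cdkn2a at 170 RPKM. Peg3, first by CPM, was sixth on that scale at 62.6 RPKM. The 2 Melan-A controls agreed closely, with log2 ratios of replicate 2 over replicate 1 between -0.20 and 0.20.

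In B16 cells the members were close to empty. Summed over the 61 genes, the B16F0 controls held 29 and 27 counts and the B16F10 controls 23 and 19, against 346591 and 365496 counts in the Melan-A controls. All 4 B16 controls were at 0 for 28 members. No read at all was found in any of the 8 B16 libraries for 16 members, namely Gli2, Vwc2, Flrt2, Zfpm2, Jrk, Setbp1, Zfp831, Pcdh10, Map9, Cdkn2a, Cdkn2b, Cytl1, Sgsm1, Peg12, Dipk2a and Chst2. The 8 libraries hold 516882892 counts, and 0 counts over all of them allow a level of up to 0.0058 CPM, for counting error only. RNA counts do not tell a deleted gene from a silent one.

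**Figure D1:**
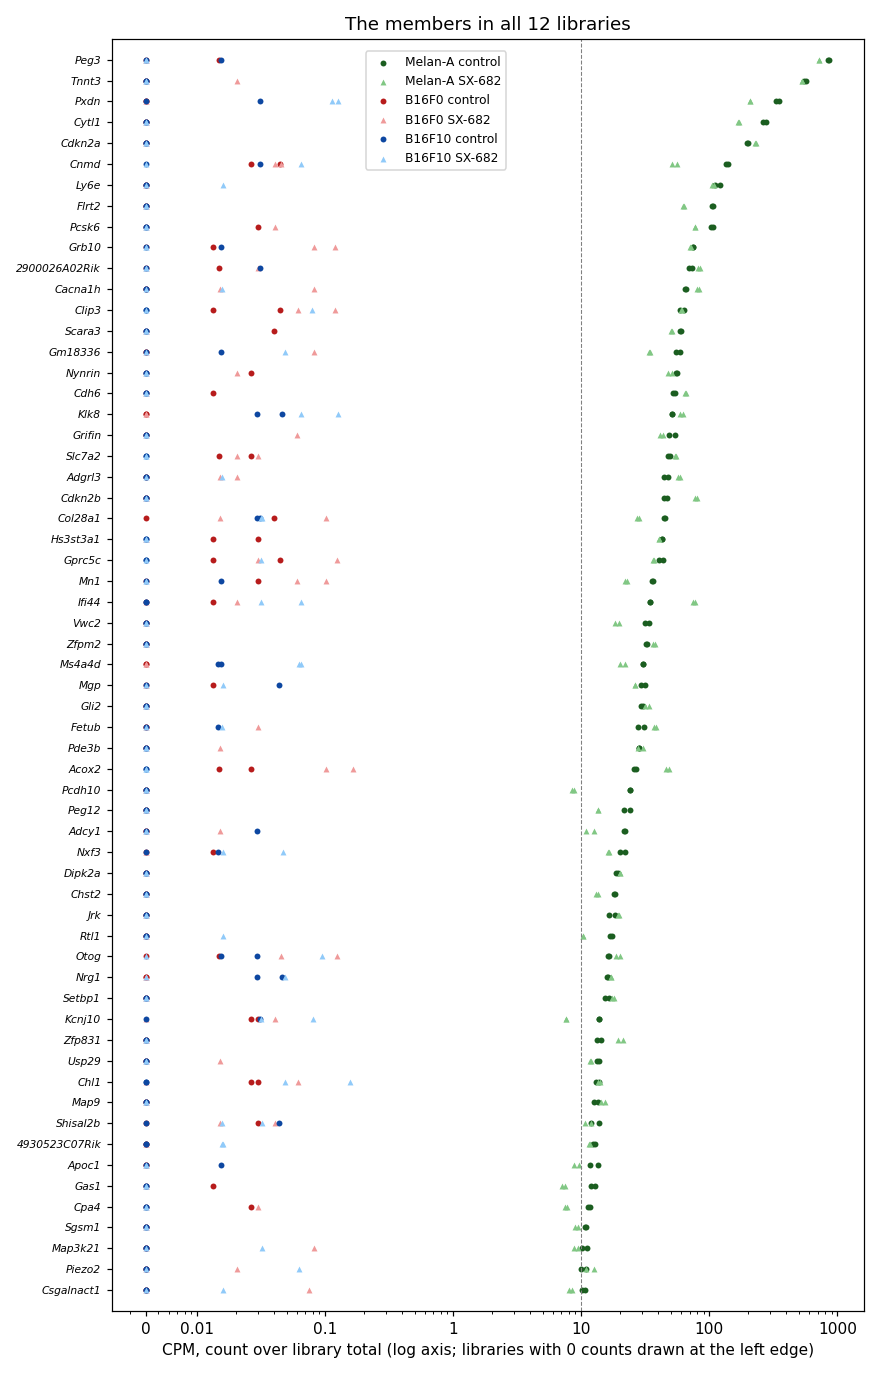
Level of 60 of the 61 members in all 12 libraries, in CPM on a log axis with libraries at 0 drawn at the left edge, ordered by the Melan-A control mean. Circles are controls, triangles are SX-682 libraries, and the dashed line marks 10 CPM. Melan-A points (green) lie above 7 CPM and B16 points (red and blue) below 0.2 CPM for every member drawn.

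The edges of the rule were narrow. Just inside the CPM minimum lay Piezo2, Csgalnact1 and Map3k21, with 10.01 to 10.98 CPM in the Melan-A controls, and just outside lay Nlrp4e, Fat4 and Col25a1, whose lower control was at 9.90, 9.79 and 9.67 CPM. At the count limit, Cnmd, Col28a1 and Klk8 had 3 counts in 1 B16 control, whereas Fbn2, Fibin and Atp1b1 had 4 counts in 1 B16 control and were left out.

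SX-682 changed 70.5% of the members in Melan-A, near the share of the possible members, and more fell than rose. At an adjusted p under 0.05 (edgeR quasi-likelihood test, Benjamini-Hochberg over 18338 genes), 30 members fell, 13 rose and 18 did not pass. The background is high, since 48.2% of all genes tested and 72.6% of the 9246 possible members passed in the same comparison. Of the members 49.2% fell and 21.3% rose, against 39.5% and 33% of the possible members, and against 24.7% and 23.4% of all genes tested. These shares are also the background for the counts by group and by gene list given below, which were not tested against them. The median log2 fold change was -0.20 over the members, -0.03 over the possible members and 0 over all genes. Both SX-682 libraries lay below both controls for 37 members (60.7%, against 44.8% of the possible members) and above both for 20 members (32.8%, against 42.5%). With SX-682 the 6 glia markers summed to 322 CPM and the 8 fibroblast markers to 102 CPM, with 5 of 6 and 4 of 8 genes lowered, and their part in the members' changes was not tested. The Melan-A controls of this comparison are the libraries that the rule used, and 53 members remained at or above 10 CPM in both SX-682 libraries.

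**Figure D2:**
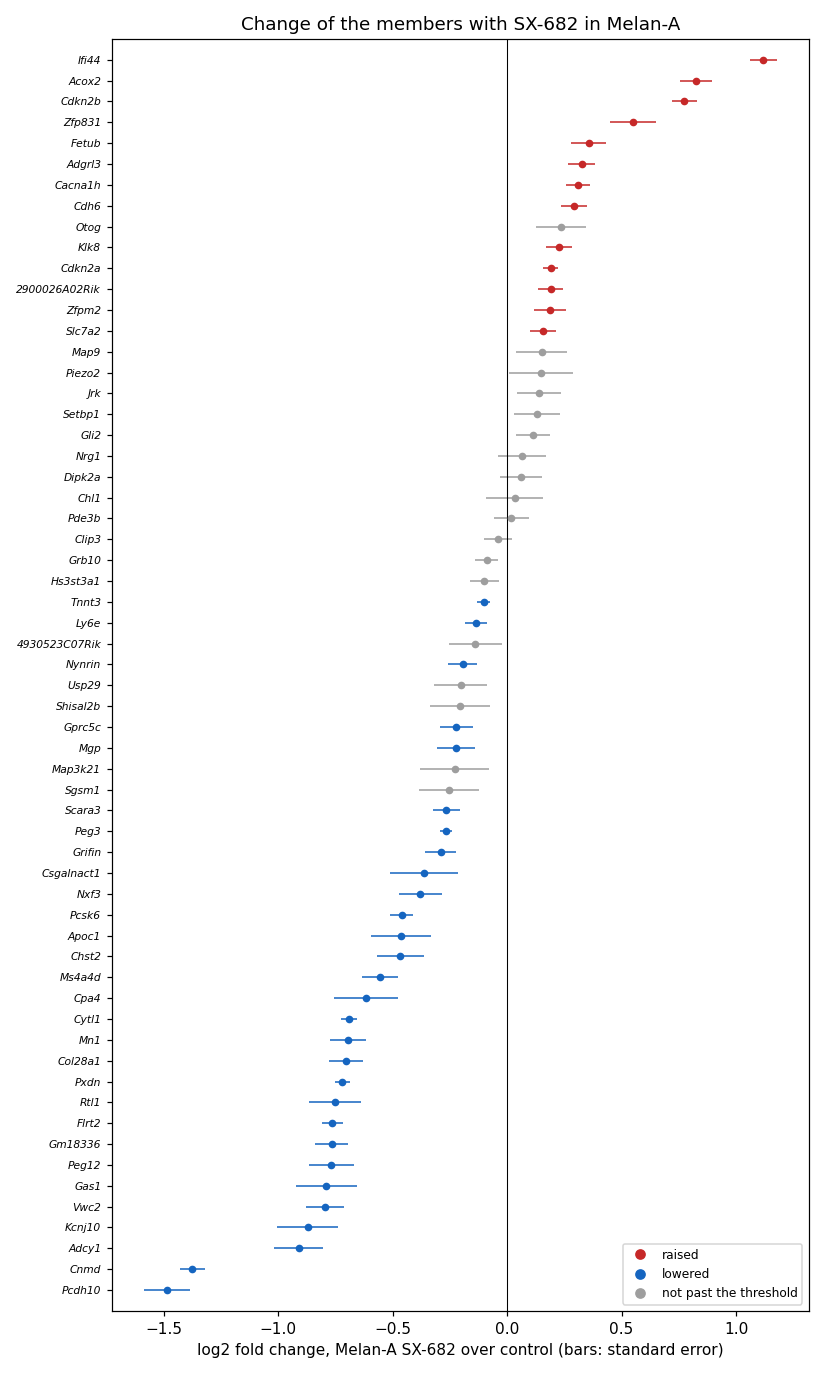
Log2 fold change of 60 of the 61 members in Melan-A with SX-682 over control, with bars of 1 standard error from the fit, ordered by size. Red members rose, blue members fell and grey members did not pass an adjusted p of 0.05. The range runs from -1.49 for Pcdh10 to 1.12 for Ifi44, and blue points outnumber red ones.

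Both cell cycle inhibitors among the members were strongly expressed in Melan-A, absent from every B16 library, and raised by SX-682. Cdkn2a, which encodes p16Ink4a and Arf, stood at 198 and 199 CPM in the Melan-A controls and at 231 and 229 CPM with SX-682. Cdkn2b, which encodes p15Ink4b, stood at 44.5 and 46.6 CPM and at 80.4 and 77.3 CPM. For both genes the SX-682 libraries lay above both controls, as for 42.5% of the possible members. The log2 fold change was 0.19 ± 0.03 (SE, adjusted p = 1.94e-05) for Cdkn2a and 0.77 ± 0.06 (adjusted p = 7.27e-12) for Cdkn2b. A count per gene does not separate the transcripts of p16Ink4a from those of Arf. Among 11 genes of a list of cyclin-dependent kinase inhibitors and the p53 pathway, all tested, 5 rose and 4 fell, and these 2 were the only ones at or under 3 counts in all B16 libraries. Cdkn1a, which encodes p21, was higher in B16 controls (718 and 464 CPM in B16F0 and B16F10) than in Melan-A controls (204 CPM), and the close relatives Cdkn2c and Cdkn2d were at 46.7 CPM or more in the controls of all 3 lines.

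The regions just before the starts of these genes are shown because both genes lacked reads in B16 cells while their starts differ in composition. The windows hold the 250 bases before a RefSeq start on GRCm38.p6, 5′ to 3′ on the minus strand, with each CG dinucleotide in capitals. The distal window of Cdkn2a, before the start used by Arf, is chr4:89294620-89294869 and holds 40 CG. The proximal window, before the start used by p16Ink4a, is chr4:89282193-89282442 with 7 CG, and the window of Cdkn2b is chr4:89311033-89311282 with 12 CG.
Cdkn2a, distal start: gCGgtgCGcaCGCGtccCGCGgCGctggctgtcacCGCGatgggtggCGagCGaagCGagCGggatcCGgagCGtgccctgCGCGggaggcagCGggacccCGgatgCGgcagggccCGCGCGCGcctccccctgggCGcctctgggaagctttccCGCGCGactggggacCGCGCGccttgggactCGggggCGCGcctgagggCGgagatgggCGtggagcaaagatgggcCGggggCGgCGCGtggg
Cdkn2a, proximal start: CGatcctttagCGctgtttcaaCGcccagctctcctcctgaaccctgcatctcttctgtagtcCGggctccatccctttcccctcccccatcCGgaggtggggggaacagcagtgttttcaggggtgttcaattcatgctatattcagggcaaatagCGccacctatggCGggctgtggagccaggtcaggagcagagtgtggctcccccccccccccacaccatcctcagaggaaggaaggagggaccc
Cdkn2b: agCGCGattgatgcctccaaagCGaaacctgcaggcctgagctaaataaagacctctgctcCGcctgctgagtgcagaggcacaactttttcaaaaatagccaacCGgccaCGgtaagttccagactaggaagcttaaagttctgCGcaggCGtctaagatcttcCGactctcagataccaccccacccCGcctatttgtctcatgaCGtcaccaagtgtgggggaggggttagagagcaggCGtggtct

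Rows on both sides of the pair were also at or near 0 in B16 cells, up to Gm26490 and then Mtap on the lower side. Cdkn2a (chr4:89274471-89294653) and Cdkn2b (chr4:89306299-89311039) have starts 31.8 kb apart with no other protein-coding row between them. On the lower side Mtap, a methionine salvage enzyme gene at chr4:89137122-89181081, was expressed in all 3 lines, with 16154 and 16865 counts in Melan-A controls, 22996 and 21048 in B16F0 controls and 31699 and 33034 in B16F10 controls. Just beyond Mtap the small nucleolar RNA Gm26490, at chr4:89182981-89183120, had 6 and 5 counts in B16F0 controls and 10 and 8 in B16F10 controls. It had 0 and 0 counts in the Melan-A controls. Between Gm26490 and Cdkn2a the long non-coding RNA Gm12606 had 54 and 38 counts in the Melan-A controls and 0 in all 8 B16 libraries. On the upper side Gm12609, Zfp352 and the neuronal RNA-binding protein gene Elavl2 were at 0 in all 8 B16 libraries too. Elavl2, at chr4:91250763-91400785, had 423 and 392 counts in the Melan-A controls. Not every row was at 0, since Gm12610 had 4 counts in 1 B16F10 control and 1 count in 1 B16F10 SX-682 library, and Dmrta1 had 1 count in each B16F0 control. The next row over 3 counts in B16 cells was the pseudogene Gm12669 at chr4:91805547-91806555, with 108 to 135 counts in the B16 controls and 40 and 60 in the Melan-A controls.

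The 5 imprinted members held the highest single level of the set. SX-682 lowered 3 of them in Melan-A, where 39.5% of the possible members fell, and 2 did not pass. Peg3, a zinc finger gene read from the paternal copy, stood at 864 and 840 CPM in Melan-A controls and at 716 and 719 CPM with SX-682, below both controls, with a log2 fold change of -0.27 ± 0.03 (adjusted p = 1.12e-09). It had 1 count in 1 control of each B16 line and 0 in the other 6 B16 libraries. Usp29, its neighbour, stood at 13.2 and 13.7 CPM in the controls and had 1 count in all 8 B16 libraries together, and 14.3% of its exon bases overlap Zim3 on the opposite strand. Peg12 (22.6 ± 1.69 CPM, SD, n = 2) and the retrotransposon-derived Rtl1 (17.1 ± 0.557 CPM) changed by -0.77 ± 0.10 and -0.75 ± 0.11 on the log2 scale (adjusted p = 2.53e-07 and 2.86e-06). Grb10, an adaptor that dampens insulin and growth factor signalling, stood at 74.4 and 74.7 CPM and did not pass (log2 fold change -0.09 ± 0.05, adjusted p = 0.153). 

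Other imprinted genes were found in B16 cells to varying degrees. Of 30 genes in a list of imprinted genes, 29 were in the file and 13 reached 10 CPM in both Melan-A controls. Of these, 4 were members, and the non-coding H19 met the same limits. With SX-682 in Melan-A, 7 of the 21 tested fell and 2 rose, beside 24.7% and 23.4% of all genes tested. Igf2r was at 544, 495 and 520 CPM in Melan-A, B16F0 and B16F10 controls, and Plagl1 was higher in both B16 lines (339 and 345 CPM) than in Melan-A (158 CPM). Cdkn1c, a growth inhibitor gene, was at 13.1 CPM in Melan-A controls, 1.47 CPM in B16F0 controls and 0 in B16F10 controls, and Mkrn3 and Dcn, at 2.68 and 2.66 CPM in Melan-A controls, were at 0 in the controls of both B16 lines. Within the Peg3 domain the remaining listed genes were low everywhere, with Zim1 at 0.122 CPM and Zfp264 at 0.0176 CPM in Melan-A controls.

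Peg3 and Usp29 run away from each other, and only 146 bases lie between their gene bodies, at chr7:6730432-6730577 on GRCm38.p6. These bases are shown because both members start at their edges. They are printed 5′ to 3′ on the strand of Peg3 (minus), with their 5 CG dinucleotides in capitals.
Peg3 to Usp29: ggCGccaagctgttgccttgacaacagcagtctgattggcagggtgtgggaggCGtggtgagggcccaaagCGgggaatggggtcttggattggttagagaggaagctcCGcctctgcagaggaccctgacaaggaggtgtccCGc

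Proteins of the matrix and secreted proteins were the largest group. With SX-682 in Melan-A 8 of 11 fell (72.7%), where 39.5% of the possible members fell. In this group 1 was raised and 2 were not past the threshold. Pxdn, a peroxidase that crosslinks collagen IV, stood at 330 and 347 CPM in controls and at 209 and 208 CPM with SX-682 (log2 fold change -0.72 ± 0.03, adjusted p = 1.63e-16). Cytl1, a cytokine-like protein of cartilage, went from 261 and 276 CPM to 170 and 167 CPM (-0.69 ± 0.03). Cnmd, which encodes the cartilage glycoprotein chondromodulin, went from 140 and 135 CPM to 56.2 and 50.9 CPM (-1.38 ± 0.05, adjusted p = 7.49e-19). For all 3 genes both SX-682 libraries lay below both controls, as for 44.8% of the possible members. The BMP antagonist Vwc2 and the collagen Col28a1 were lowered by 0.80 and 0.70 on the log2 scale, Apoc1, an apolipoprotein, by 0.46, and Mgp, an inhibitor of calcification, by 0.23. Fetub, a protease inhibitor of the fetuin family, was the one that rose, from 27.6 and 30.6 CPM to 37.2 and 38.2 CPM. Neuregulin 1, a ligand of the ERBB receptors on Schwann cell precursors and melanocytes, stood at 15.9 and 16.2 CPM in the controls and 16.9 and 17.01 CPM with SX-682 and did not pass. Its receptor gene Erbb3 was at 265, 97.8 and 210 CPM in Melan-A, B16F0 and B16F10 controls. In a list of 34 matrix genes, which holds 1 of the members, 18 fell and 7 rose, beside 24.7% and 23.4% of all genes tested.

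Windows before the starts of Pxdn (chr12:29937786-29938035, 14 CG), Cytl1 (chr5:37735269-37735518, 4 CG) and the adhesion gene Pcdh10 (chr3:45378148-45378397, 22 CG) are shown because these 3 members fell with SX-682 in Melan-A and carry few, some or many CG. All 3 lie on the plus strand.
Pxdn: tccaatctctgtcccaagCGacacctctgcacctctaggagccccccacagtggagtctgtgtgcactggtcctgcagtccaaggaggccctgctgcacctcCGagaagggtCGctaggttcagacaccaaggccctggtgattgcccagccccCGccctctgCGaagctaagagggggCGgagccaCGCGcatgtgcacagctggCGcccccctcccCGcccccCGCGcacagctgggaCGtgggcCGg
Cytl1: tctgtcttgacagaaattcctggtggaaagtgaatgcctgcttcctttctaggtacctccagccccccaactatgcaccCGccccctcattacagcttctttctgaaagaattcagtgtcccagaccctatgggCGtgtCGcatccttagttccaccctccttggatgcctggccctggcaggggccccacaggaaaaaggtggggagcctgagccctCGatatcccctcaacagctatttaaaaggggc
Pcdh10: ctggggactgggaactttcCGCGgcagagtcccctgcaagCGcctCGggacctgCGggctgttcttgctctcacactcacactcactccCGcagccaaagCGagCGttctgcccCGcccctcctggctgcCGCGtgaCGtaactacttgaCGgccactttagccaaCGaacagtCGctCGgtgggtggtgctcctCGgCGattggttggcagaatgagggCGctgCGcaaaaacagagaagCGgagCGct
RefSeq windows were matched for only 40 of the 61 members (65.6%), so a comparison of CG content over the members is void.

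Among the 6 adhesion members, 3 fell, 2 rose and 1 did not pass, where 39.5% of the possible members fell and 33% rose. Pcdh10, a protocadherin, had the steepest fall of all members, from 24.1 and 23.9 CPM in controls to 8.53 and 8.81 CPM with SX-682 (log2 fold change -1.49 ± 0.10, adjusted p = 3.87e-12). Flrt2, a guidance receptor and adhesion ligand, fell from 107 and 105 CPM to 62.6 and 63.9 CPM (-0.76 ± 0.05), and Gas1, a surface co-receptor for Hedgehog ligands, fell from 11.97 and 12.8 CPM to 7.43 and 7.06 CPM (-0.79 ± 0.13). Adgrl3, a latrophilin that binds FLRT proteins, rose from 44.2 and 47.1 CPM to 59.5 and 56.5 CPM (0.33 ± 0.06), and Cdh6, a cadherin of the neural crest, rose from 53.5 and 51.7 CPM to 66.1 and 64.3 CPM (0.29 ± 0.06). In all 5 genes the SX-682 libraries lay outside the range of the controls, as they did for most possible members (42.5% above and 44.8% below). Chl1, a neural adhesion molecule, was at 12.9 and 13.7 CPM against 14.03 and 13.5 CPM. The other latrophilins Adgrl1 and Adgrl2 were at 41.4 CPM or more in the controls of all 3 lines, and of 13 cadherin genes Cdh6 was the single member. Cdh2 and Cdh19 were at 95.4 CPM or more in the controls of all 3 lines.

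Among transcription and chromatin factors, 2 rose, 1 fell and 3 did not pass. Gli2, the main activator of Hedgehog target genes, stood at 29.4 and 30.4 CPM in Melan-A controls and at 31.6 and 33.9 CPM with SX-682 (log2 fold change 0.11 ± 0.07, adjusted p = 0.231), and had no read in B16 cells. Its relative Gli3 was found in all 3 lines, at 129, 40.3 and 51.8 CPM in Melan-A, B16F0 and B16F10 controls, as were the receptor Ptch1 (79.2, 52.7 and 36.6 CPM) and the transducer Smo (239, 128 and 228 CPM). No Hedgehog ligand exceeded 3.05 CPM in the controls of any line. Of 14 Hedgehog pathway genes, a list drawn up after these values were known, 12 were tested in Melan-A, 6 fell and 2 rose. Zfp831, a zinc finger gene, rose from 14.1 and 13.2 CPM to 19.5 and 20.98 CPM (0.55 ± 0.10), and Zfpm2, a cofactor of GATA proteins, rose by a log2 fold change of 0.19 ± 0.07. Mn1, a transcriptional coactivator, fell from 36.1 and 35.8 CPM to 22.9 and 22.03 CPM (-0.70 ± 0.08). Jrk and Setbp1 stood at 16.5 to 19.6 CPM and 15.4 to 18.01 CPM over the 4 Melan-A libraries and did not pass.

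Of the 6 channel, transporter and receptor genes 3 fell and 2 rose, where 39.5% of the possible members fell and 33% rose. Kcnj10, an inward rectifier potassium channel of glia and melanocytes, fell from 13.8 and 13.7 CPM to 7.64 and 7.59 CPM (log2 fold change -0.87 ± 0.13, adjusted p = 2.46e-06). Cacna1h, a T-type calcium channel subunit, rose from 65.7 and 64.3 CPM to 80.2 and 82.9 CPM (0.31 ± 0.05, adjusted p = 1.52e-05). The scavenger receptor Scara3 and the orphan receptor Gprc5c were lowered by 0.27 and 0.22, Slc7a2, which carries arginine, rose by 0.16, and the mechanosensitive channel Piezo2, with 10.01 to 12.7 CPM, did not pass. Adcy1, an adenylate cyclase, was the only one of 4 intracellular signalling genes to pass and fell from 22.1 and 21.6 CPM to 10.9 and 12.6 CPM (-0.91 ± 0.11). Pde3b, Sgsm1 and Map3k21 did not pass.

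The 3 immune-related members moved apart. Ifi44, an interferon-induced gene, had the largest rise of all members, from 34.6 and 34.4 CPM in controls to 77.6 and 74.2 CPM with SX-682 (log2 fold change 1.12 ± 0.06, adjusted p = 1.68e-15). It was the single member in a list of 27 interferon response genes, of which 25 were tested, 15 rose and 5 fell. The listed leukocyte markers, 7 of 8 in the file, summed to 26.8 CPM in Melan-A controls and 55.6 CPM with SX-682. Within that sum Cd68, a lysosomal gene of macrophages, went from 17.05 to 48.04 CPM while Lyz2 went from 7.44 to 4.91 CPM, and their part in the rise of Ifi44 was not tested. Ly6e, a lipid-anchored surface protein, was lowered by 0.13 (adjusted p = 0.0189), and Ms4a4d, a four-pass membrane protein, fell from 30.5 CPM in both controls to 21.9 and 20.2 CPM (-0.55 ± 0.08). Ms4a4d belongs to a family of similar neighbouring genes, so reads may have been shared with its relatives.

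Several members are best known from tissues far from skin pigment cells. Tnnt3, the troponin T of fast skeletal muscle, stood at 564 and 553 CPM in the Melan-A controls and at 528 and 525 CPM with SX-682, a small fall (log2 fold change -0.10 ± 0.03, adjusted p = 0.00229). Grifin, a lens galectin, fell from 53.7 and 48.2 CPM to 43.1 and 41.2 CPM (-0.29 ± 0.07). The microtubule proteins Clip3 and Map9 did not pass. The 3 protease members all passed, as did 72.6% of the possible members. Pcsk6, a proprotein convertase, fell from 107 and 103 CPM to 77.4 and 76.8 CPM (-0.46 ± 0.05), Cpa4 was lowered by 0.62, and the kallikrein Klk8 rose from 51.3 and 51.0 CPM to 58.6 and 62.4 CPM (0.22 ± 0.06). Klk8 shares 24.8% of its exon bases with 2310002F09Rik on the opposite strand, and the strand used in counting is not given in the sources used here. The same holds for Hs3st3a1 (32.9%), Gas1 (19.9%) and Nynrin (56.5%). Of the enzymes that build sulfated glycosaminoglycans and related glycans, Chst2 and Csgalnact1 were lowered by 0.47 and 0.36, and Hs3st3a1, at 40.3 to 42.7 CPM in the 4 libraries, did not pass. Acox2, a peroxisomal oxidase of branched fatty acids and bile acid precursors, rose from 26.6 and 25.9 CPM to 45.8 and 48.4 CPM (0.83 ± 0.07, adjusted p = 4.48e-11), the second largest rise. Among the 7 remaining members, 2900026A02Rik rose by 0.19, Gm18336, Nxf3 and Nynrin were lowered by 0.77, 0.38 and 0.19, and Dipk2a, Shisal2b and 4930523C07Rik did not pass.

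Most members stood alone in the genome. With starts up to 1 Mb apart counted as neighbours, 12 of the 61 members formed 6 pairs, and no cluster of 3 or more was found. In 4 pairs every protein-coding row between the partners was also at or under 3 counts in the B16 controls, or there was none: Cdkn2a and Cdkn2b on chromosome 4, Peg3 and Usp29 on chromosome 7, Jrk and Ly6e on chromosome 15 with 13 of 13 such rows, and 2900026A02Rik and Sgsm1 on chromosome 5 with 1 of 1. Of all 19024 protein-coding rows, 4752 were at or under 3 counts in the B16 controls. Between Jrk and Ly6e only Them6 and Lynx1 reached 1 CPM in both Melan-A controls, and between 2900026A02Rik and Sgsm1 no row did. Most of these rows were therefore low in Melan-A too. The other 2 pairs were only near each other, since Fignl1 and Ddc lie between Vwc2 and Grb10 on chromosome 11, and Slc9a9 between Dipk2a and Chst2 on chromosome 9, with more than 3 counts in a B16 control. Slc9a9 was higher in B16 cells, with 739 and 621 counts in B16F0 controls against 116 and 140 in Melan-A controls. Chromosome 7 held 10 members, 16.4% of all against 7.07% of the possible members, and chromosome 10 held none among 449 possible members.

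Among the stretches around members, the one on chromosome 15 held the most rows expressed in Melan-A and at or near 0 in B16 cells. A run of 5 rows with at least 1 CPM in both Melan-A controls, Arc, Jrk, Them6, Lynx1 and Ly6e, had at most 3 counts in every B16 library. Arc, a neuronal activity gene at chr15:74669083-74672570, had 457 and 526 counts in the Melan-A controls, and Ly6e at chr15:74955051-74959905 had 8984 and 10392. Beyond Ly6e the relatives Ly6a and Ly6c1 were at 53.7 and 73.9 CPM in Melan-A controls. Ly6a had 0 counts in both B16F0 controls and 1 and 6 in the B16F10 controls, and Ly6c1 had 0 in B16F0 controls but 76 and 62 in B16F10 controls, so the B16 lines parted there. Genes of the Ly6 family resemble each other, and shared reads cannot be told apart from their own.

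On chromosome 7, Tnnt3 (chr7:142498836-142516009) lies with Prr33 next to Mrpl23, a mitochondrial ribosome gene with 1577 to 2105 counts in all 6 controls, and the imprinted H19 region follows on the far side. Peg12 has the imprinted Mkrn3 beside it, at 2.68 CPM in Melan-A controls and 0 in all 8 B16 libraries. Rtl1 lies in the Dlk1-Dio3 domain, where Dlk1 had 58 and 42 counts in the Melan-A controls and 0 in all 8 B16 libraries. Near Grb10, Cobl had 710 and 659 counts in the Melan-A controls and 3, 0, 0 and 1 in the B16 controls. Ddc, on the other side of Grb10, had 2134 and 2196 counts in the Melan-A controls and up to 8 in a B16 control. For comparison, 281 of the 12147 rows with at least 1 CPM in both Melan-A controls (2.31%) were at or under 3 counts in the 4 B16 controls, and 40 members had no further such row in their stretch.

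**Figure D3:**
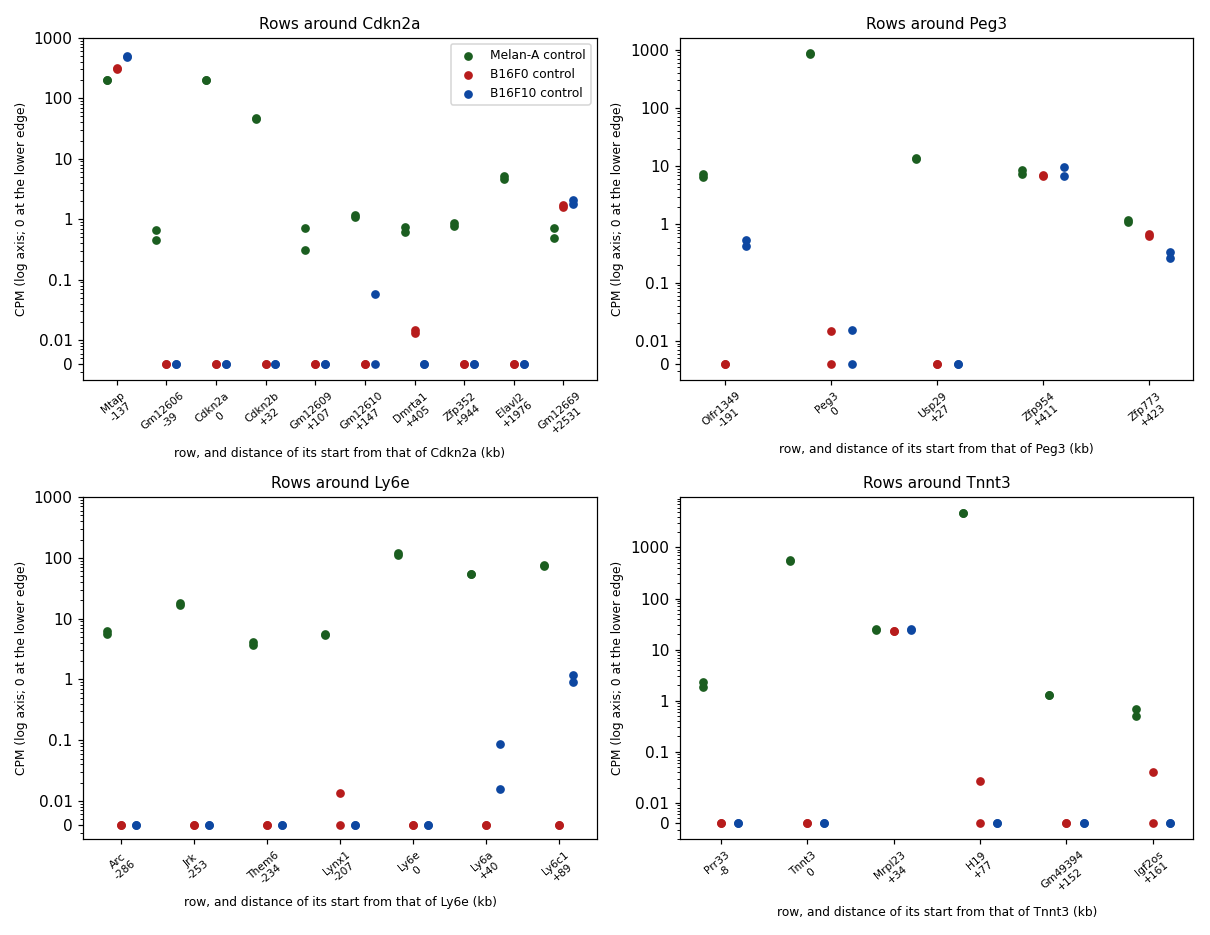
Level of selected rows around Cdkn2a, Peg3, Ly6e and Tnnt3 in the 6 control libraries, in CPM on a log axis with 0 at the lower edge. Each row carries the distance in kb of its start from that of the named gene, and rows are spaced evenly, not by distance. Gm26490, next to Mtap, is not drawn. Melan-A (green) is above 0.1 CPM throughout, while B16F0 (red) and B16F10 (blue) drop to or near 0 between Mtap and Gm12669, at Peg3 and Usp29, from Arc to Ly6e, and on both sides of Mrpl23.

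SX-682 did not bring any member back to its Melan-A level in B16 cells. The largest count of a member in any of the 4 B16 SX-682 libraries was 11, and the highest mean level in a B16 line with SX-682 was 0.770% of the Melan-A control level of the same member, for Chl1 in B16F10. The members summed to 63 and 63 counts in the B16F0 SX-682 libraries and to 61 and 49 in those of B16F10, against 19 to 29 in the controls. The rule capped every B16 control at 3 counts and left the SX-682 libraries free, so a rise is partly built into these sums. Over 3 counts in at least 1 SX-682 library were found for 20 members, 32.8% of them, against 14.4% of all 4752 protein-coding rows under the same cap, and 41 members stayed at or under 3 counts in all 4. The capped rows were not limited to genes expressed in Melan-A, so these shares are not like for like.

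More than 3 counts in both SX-682 libraries of a line were reached by 3 members in each line. In B16F0, where 2.5% of the 4752 capped rows did so, Acox2 had 2 and 1 counts in the controls and 11 and 5 with SX-682, Grb10 had 1 and 0 against 8 and 4, and Mn1 had 0 and 2 against 4 and 5. The ratio of summed counts per total was 6.58 for Acox2 (exact 95% interval 1.88 to 35.2), 14.8 for Grb10 (2.19 to 633) and 5.55 for Mn1 (1.15 to 52.8). In B16F10, where 0.694% of the capped rows did so, Pxdn had 2 and 0 counts in the controls and 8 and 7 with SX-682, a ratio of 7.91 (1.84 to 71.3). Klk8 had 3 and 2 counts against 8 and 4, and Ms4a4d 1 and 1 against 4 and 4, with ratios of 2.53 (0.830 to 9.18) and 4.22 (0.842 to 40.8). Both intervals include no change. These intervals cover counting error only. The shares of capped rows include genes not expressed in Melan-A and are not like for like with the members.

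By the edgeR test, 6 members rose in B16F0 (Acox2, Grb10, Mn1, Cacna1h, Csgalnact1 and Otog) and 4 in B16F10 (Pxdn, Chl1, Clip3 and Ifi44). The rule capped the controls of this test at 3 counts for every member, so a rise is partly built in here too. Members passed the expression filter only through their Melan-A counts, since separate fits of a B16 line tested no member. These calls are therefore given as a description. The shares were 9.84% and 6.56%, beside 25.1% and 25.5% of all genes tested. All genes tested were not capped in this way, so these shares are not like for like. Adjusted p was 0.00317 for Acox2, 0.00234 for Grb10 and 0.00435 for Pxdn. Csgalnact1 in B16F0 and Clip3 in B16F10 rested on 5 counts in a single SX-682 library with 0 in the other 3 libraries of the line. Cacna1h had 0 and 0 against 1 and 4 counts, and Ifi44 0 and 0 against 2 and 4, which is at least 1.03-fold and 1.06-fold higher against 3 counts in each control. Without control replicate 1 the count of risen members dropped to 2 in B16F0 and to 2 in B16F10, and without control replicate 2 it dropped to 1 in B16F10.

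Chl1 was the single member past the test of the difference between the B16 responses, with few reads. It had 0 and 0 counts in B16F10 controls and 10 and 3 with SX-682, at least 2.29-fold higher against 3 counts in each control, whereas in B16F0 it had 2 and 2 counts in controls and 0 and 3 with SX-682. The difference between the responses passed the test (log2 difference 6.02 ± 2.13, adjusted p = 0.0319). Of all genes tested 30.3% passed. The controls in this difference are those that the rule capped at 3 counts, and 10 of the 13 reads of the rise stand in a single library. Chl1 also passed the expression filter only through its Melan-A counts.

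**Figure D4:**
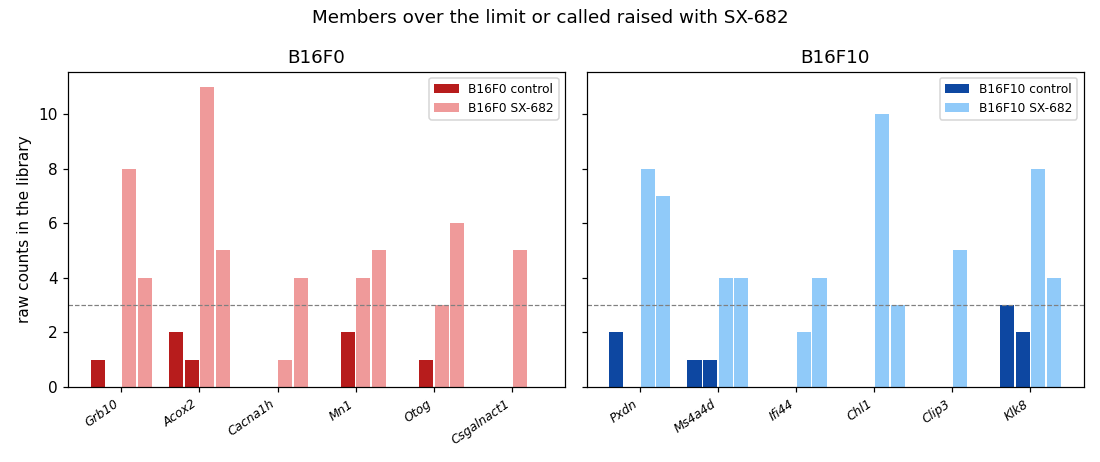
Raw counts of the 12 cases of a member over 3 counts in both SX-682 libraries of a B16 line or past the test for a rise there, with 1 bar per library, dark for controls and light for SX-682. The dashed line marks 3 counts. The bars reach 11 counts at most, and Csgalnact1 and Clip3 show a bar in 1 library only.

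The libraries with SX-682 were not used by the rule, but they come from the lines on whose difference the members were chosen. The outcome of the line comparison in them was therefore largely set by that choice, and it is given as a description. All 61 members were higher in Melan-A with SX-682 than in B16F0 with SX-682, and all 61 were higher than in B16F10 with SX-682, where 40.1% and 40.3% of all genes tested and 46.3% and 42.4% of the possible members were higher in Melan-A. The largest adjusted p was 1.14e-17 against B16F0 and 6.63e-18 against B16F10. Neither set of shares comes from genes chosen on the line difference, so they are not like for like. These libraries belong to the same 3 lines, so the values describe the difference in further libraries of these lines and not in other melanomas. Against B16F0, 32 members were at 0 in both SX-682 libraries, and the bounds ran from at least 139-fold higher for Gas1 to at least 13810-fold higher for Peg3. The other 29 had reads in B16F0, and the lowest ratio was 190 for Csgalnact1 (exact 95% interval 81.2 to 586). Against B16F10, 36 members were at 0, with bounds from 152-fold for Gas1 to 15073-fold for Peg3, and the lowest ratio among the other 25 was 134 for Chl1 (77.9 to 251).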

How the data were processed

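The study sequenced RNA of Melan-A, B16F0 and B16F10 cells, untreated or with SX-682, in 12 libraries. The authors deposited raw counts of reads per gene for 34513 rows with their coordinates, without normalization. The submitters' processing notes name cutadapt, STAR, DESeq2 and mm10, while their settings, the counting program and its use of strand are not given in the sources used here. Groups came from the sample labels, and all columns were matched by name.

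CPM was the count over the column total, and RPKM divided it by the exon length in the table. The members, roles and gene lists were chosen with earlier results of these data known, and 7 of the lists after the members' values were seen. Counts were fitted with edgeR 4.0.16 in R 4.3.3 (quasi-likelihood, TMM factors 0.934 to 1.08, filterByExpr, 1 fit over 6 groups, Benjamini-Hochberg over 18338 genes, threshold 0.05). The shared biological coefficient of variation was 2.78%. All 61 members were tested. The fit was tested on simulated data. DESeq2 1.42.0, other scalings, filters, a replicate block and leaving out each library were alternatives. Replicate libraries differed beyond sampling noise, with a mean chi-square per gene of 2.87 to 5.25.

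Genes named were the list members, the 10 highest by CPM and by RPKM, and the 8 largest rises and falls in Melan-A. Also named were those over 3 counts in B16 cells with SX-682 and those at the edges of the rule. Pairs with no protein-coding row over 3 counts between them in the B16 controls were named too. Other members are named after their values were seen, and a single member is counted but not reported here by name. Sequences are from RefSeq on GRCm38.p6. Of the members, 59 were found in GENCODE M21 with the same coordinates.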

Additional observations from a re-analysis of the deposited data

Results flagged for a closer look

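Chl1, a neural adhesion molecule, was singled out because the effect of SX-682 on it was unequal in B16F0 and B16F10 by a test of the difference itself. The log2 fold change in B16F10 minus that in B16F0 was 6.02 ± 2.13 (SE, n = 2 libraries in each of 4 groups, edgeR adjusted p = 0.0319). B16F10 had 0 and 0 counts untreated and 10 and 3 with SX-682, and B16F0 had 2 and 2 counts untreated and 0 and 3 with SX-682, so the fitted value rests on a group at 0 and is no measure of size. The controls in this difference are libraries that the rule capped at 3 counts for every member, so it is not independent of the choice of members. Chl1 passed the expression filter only through its Melan-A counts. Other settings were computed for the rise in B16F10 and not for the difference between the lines. That rise stayed past the threshold in all 10 settings in which it was computed, with adjusted p up to 0.0440. In Melan-A Chl1 did not pass (log2 fold change 0.03 ± 0.12).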

How the results depend on the processing

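The number of members, 61, depends on the limits: 108 at 5 CPM or more, 39 at 20 CPM or more, 28 with 0 counts and 95 with at most 10 counts in each B16 control. It was 62 with all gene types, 58 with TMM-scaled CPM and 63 to 70 without 1 control library. In Melan-A the 43 changed members were 42 to 48 under the alternatives that keep all libraries and 34 to 39 without 1 library (10 to 11 risen, 23 to 28 fallen). All 43 kept their direction under every alternative run, 42 stayed past the threshold in each that keeps all libraries (Csgalnact1 did not pass with no filter), and 31 did so whichever library was left out. Of members not past the threshold, Chl1, Clip3 and Pde3b turned sign without 1 library, with ranges of -0.0003 to 0.079, -0.0827 to 0.0178 and -0.0346 to 0.0897 on the log2 scale. The risen members were 4 to 8 in B16F0 and 3 to 4 in B16F10 with all libraries, and 2 to 6 and 1 to 4 without 1; control replicate 1 decided the lowest value in B16F0 (2) and gave 2 in B16F10, control replicate 2 gave 1 there. The causes were not tested. Over 0 counts in both SX-682 libraries were found for 12 members in B16F0 and 10 in B16F10, and over 10 counts for 0 and 0. Pairs within 250 kb numbered 3, with 6 members. All 61 members stayed higher in Melan-A with SX-682 than in either B16 line, also without 1 library (61 to 61). Separate fits of a B16 line tested no member. Replicate numbers did not pair the libraries (correlations of deviations -0.028, -0.011 and -0.0089), and the replicate block gave 43 changed members in Melan-A and 8 and 4 risen in B16F0 and B16F10. The limit of 3 counts was chosen, and at library totals of 48876982 to 85322092 counts a level under it rests on very few reads.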

Other observations

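One non-coding gene met the same limits as the members. H19, an imprinted long non-coding RNA of the chromosome 7 region that holds Tnnt3, had 4735 ± 109 CPM (SD, n = 2) in Melan-A controls and 4012 ± 25.4 CPM with SX-682. It had 2 and 0 counts in B16F0 controls, 0 and 0 in B16F10 controls, 0 and 3 in B16F0 with SX-682 and 0 and 2 in B16F10 with SX-682. Its partner Igf2 was at 0.227 CPM in Melan-A controls and 0 in the controls of both B16 lines. Lsp1, a cytoskeletal gene of the same region, was at 152 CPM in Melan-A controls and at 0.580 and 0.227 CPM in B16F0 and B16F10 controls.

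Among other imprinted genes of the list, 2 with high levels in Melan-A were lower in B16 cells. Mest, a paternally expressed gene, was at 224 CPM in Melan-A controls and at 13.7 and 3.59 CPM in B16F0 and B16F10 controls, and Peg10 was at 254, 99.5 and 60.6 CPM. Both fell with SX-682 in Melan-A (log2 fold change -1.92 ± 0.04 and -1.41 ± 0.03). The keratinocyte markers, 8 of 8 in the file, summed to 6.13 CPM in Melan-A controls, 0 CPM in B16F0 controls and 0.393 CPM in B16F10 controls.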
